A study of Mus musculus with 66 samples.

Results

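Sarcomeric myosin heavy chains are the motor subunits of the thick filament of striated muscle. The 8 genes described here were taken by name from the mRNA-Seq table: Myh1, Myh2, Myh3, Myh4, Myh6, Myh7, Myh7b and Myh8, which are 8 of its 22489 genes. All 8 were in the table, once each.

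Every heavy chain has a head that binds actin and splits ATP, and a long tail that packs with other tails into the thick filament. Muscle cells exchange these chains as they mature: the embryonic chain (Myh3) and the perinatal chain (Myh8) come before the adult fast chains (Myh1, Myh2 and Myh4), which replace them in fast fibers. Myh7 is the slow chain. Myh6 is the alpha chain of the heart, and Myh7b is an ancient member that hosts a muscle microRNA.

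The cells were C2C12, an established mouse myoblast line that fuses into myotubes when serum is withdrawn. mRNA-Seq was made from cells without a transgene (WT) and from 9 stable lines, each carrying 1 Tet-On, doxycycline-inducible histone H3 with an N-terminal GFP tag and named after it. By the residues that separate H3.1 and H3.2 from H3.3, 3 lines are H3.1/H3.2-type (H3t, H3.1 and H3.2) and 6 are H3.3-type (H3.3, H3mm7 and H3mm11, with H3mm12, H3mm13 and H3mm16). Each line gave 1 library in growth medium with 20% fetal bovine serum and 1 after 48 h in medium with 2% horse serum, so 20 libraries in all. The GFP-H3 cells had been kept in doxycycline and G418 and sorted for GFP, no such steps are given for WT in the sources used here, and every line also kept its own endogenous H3 genes. No line was repeated, so p-values measure the spread between lines, and a tagged histone cannot be told apart from the single cell line that carries it.

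Values are FPKM, fragments scaled to the length of the transcript and to the mapped fragments of the library, so levels of different genes are set per length. The smallest steps between values of genes with 1 transcript gave an estimate of 21700000 to 51400000 fragments per library. On a transcript of 6 kb, about the length of each heavy chain mRNA, 1 fragment was then worth 0.00324 to 0.00767 FPKM and 3 fragments 0.00972 to 0.0230 FPKM; values in this range rest on a handful of fragments. WT stood apart from the lines over the whole table: 209 genes with a mean of at least 1 FPKM, Gapdh among them, were at least 8 times lower in both WT libraries than in any line. None of the 8 heavy chains was among these genes, and scaling all libraries to the same median changed WT by a factor of 1.04 in growth and 1.02 in differentiated cells.

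Skeletal muscle markers rose with differentiation in 6 of 7 genes of the list (Des, Ckm, Acta1, Tnnt3, Tnni2 and Myog; not Myod1), and the summed FPKM of the list went from 205 to 762 over the growth libraries to 2979 to 13917 over the differentiated ones. The 8 cycling markers all fell, from a sum of 782 to 1411 FPKM to one of 90.3 to 228. Of the lists for other cell types, 1 of 4 tested smooth muscle genes and 1 of 4 cardiac genes rose and 1 of each fell, neither of 2 adipocyte genes passed, and the 1 osteoblast gene tested fell. In bulk RNA, fewer myotubes and less heavy chain mRNA per myotube cannot be told apart.

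The members lie in 3 places of the mouse genome (mm9, with the GENCODE M1 annotation, in which all are protein-coding). Myh3 (chr11:66891802-66915793), Myh2 (chr11:66984529-67011019), Myh1 (chr11:67013554-67038078), Myh4 (chr11:67051314-67073948) and Myh8 (chr11:67090626-67122136) follow each other on the plus strand over 230335 bases. Myh3 stands 68735 bases from Myh2, while Myh2 and Myh1 are 2534 bases apart. Myh6 (chr14:55560758-55585764) and Myh7 (chr14:55589525-55613471) are neighbours on the minus strand, 3760 bases apart, and Myh7b is alone at chr2:155436948-155460043 on the plus strand.

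The coding sequences differ enough to tell most reads apart but not all. Myh6 and Myh7 shared 91.7% of aligned coding bases, Myh1 and Myh2 91.1%, and Myh1 and Myh4 90.2%. Myh3 shared at most 81.6% with another member (Myh2), and Myh7b at most 73.1% (Myh7). Of the 31-base words of each transcript, 39.7% of Myh1, 38.5% of Myh2, 32.7% of Myh6, 32.5% of Myh8, 31.9% of Myh7 and 30.4% of Myh4 occurred in the transcript of another protein-coding gene too. The share was 10.8% for Myh3 and 0.179% for Myh7b. The shares depend on the word length. With words of 50 bases they were 18.9% (Myh4) to 26.9% (Myh2) for the same genes, 4.81% for Myh3 and 0% for Myh7b. The other gene was another member or Myh13 in each case. Fragments inside shared words have to be split between genes by the counting, so low values of Myh1, Myh2, Myh4 and Myh8 beside the very abundant Myh3, and of Myh6 beside Myh7, are uncertain to that extent. With Myh3 itself, Myh2 shared 6.21% of its 31-base words, Myh8 5.41%, Myh1 4.25% and Myh4 3.47%, and no other member reached 1 word in 100. With words of 50 bases Myh2 shared 1.81% with Myh3.

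**Figure D1:**
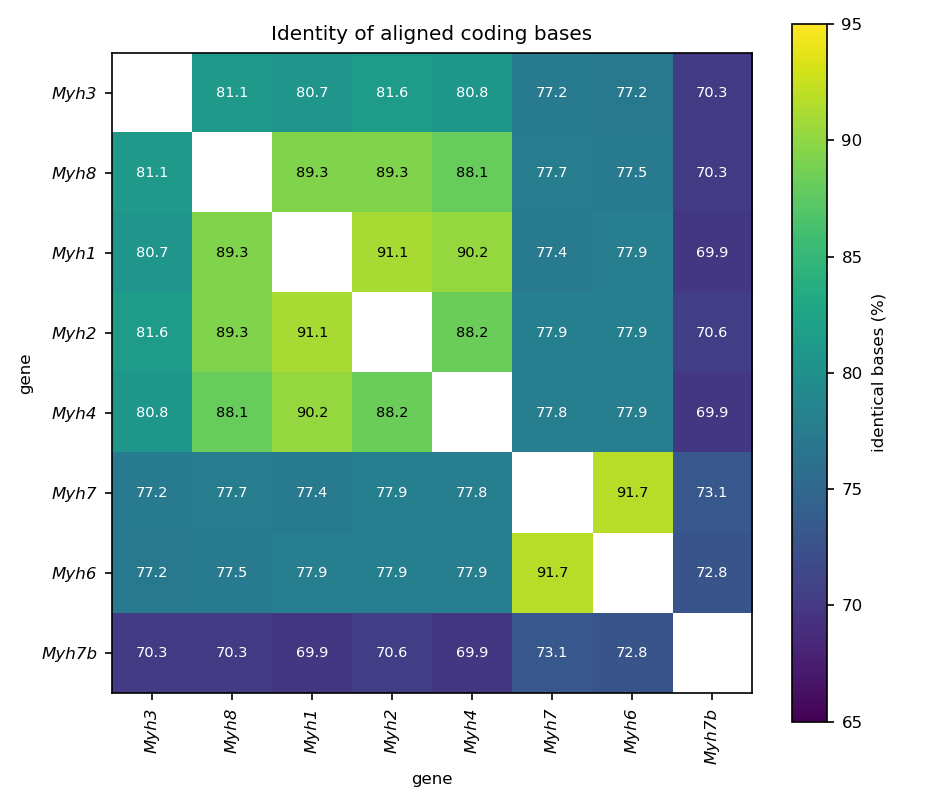
Identity of aligned coding bases between each pair of the 8 heavy chain genes, in percent (mm9, GENCODE M1 transcripts with the longest coding sequence). The adult fast and perinatal genes form a block of 88.1% to 91.1%, Myh6 and Myh7 stand at 91.7%, and Myh7b is the farthest from all others at 69.9% to 73.1%.

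One stretch in which several of the genes are close to identical is the P-loop, the part of the motor head that holds the phosphate of ATP. Its codons are shown with 1 codon on either side, on the coding strand and 5′ to 3′, for 6 members, to show how little separates the chromosome 11 genes there. The P-loop began at codon 177 in Myh7b, at codon 181 in Myh8 and at codon 179 in the other 4. Capitals mark bases unlike those of Myh3:
Myh3: accggagaatccggggccgggaagacggtg
Myh8: accggagaatccggggccgggaagacTgtg
Myh1: accggagaatccggggccgggaagacTgtg
Myh2: accggagaatccggggccgggaagacTgtg
Myh4: acTggagaatccggggccgggaagacTgtg
Myh7b: accggagaGtcGggggccggTaagacggtT
Over these 30 bases, Myh8, Myh1 and Myh2 were the same and had 1 base unlike Myh3, while Myh4 had 2 and Myh7b had 4.

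The promoters of the members, taken from RefSeq (GRCm38.p6) as 250 bases before to 50 after the start, were all found. A MEF2 site, the AT-rich element bound by the myocyte enhancer factors, occurred on either strand in 3.19% of 32851 promoters of the same length, and in those of Myh1, Myh4 and Myh8. In all 3 it read the same, so these windows are shown with the site in capitals:
Myh1 (chr11:67199881-67199910, plus strand): acaactcaaaTTATTTATAGgagattgatt
Myh4 (chr11:67237620-67237649, plus strand): ccctgtcaaaTTATTTATAGatgacaagaa
Myh8 (chr11:67277015-67277044, plus strand): ccttgtcaaaTTATTTATAGgagattggtt
The site began at -211, -182 and -99 from the start in Myh1, Myh4 and Myh8. The letters TATAAA on the coding strand, found anywhere in the window in 8.32% of promoters, lay shortly upstream of the start in Myh1, Myh3 and Myh4, and the windows around them are shown because Myh3 is the most abundant member:
Myh3 (chr11:67078259-67078288, plus strand): ttagtggtggccTATAAAagcccagggggc
Myh1 (chr11:67200058-67200087, plus strand): catatttgatccTATAAAagtaccccttgg
Myh4 (chr11:67237769-67237798, plus strand): cagaacagcctcTATAAAagtgaagctggg
These began at -29, -32 and -31 from the start. The E-box letters CANNTG, the core bound by MyoD and myogenin, were in 72.3% of all promoters and in those of 6 members, not in the windows of Myh1 and Myh2. These matches describe letters only.

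A microRNA lies in an intron of each of 3 members: Myh6 holds Mir208a (chr14:55567897-55567979), Myh7 holds Mir208b (chr14:55594537-55594613) and Myh7b holds Mir499 (chr2:155448616-155448694), each on the strand of its host. Their mature forms, from RefSeq, are shown with the seed (bases 2 to 8) in capitals, because the hosts belong to the slow and cardiac branch of the family:
miR-208a-3p: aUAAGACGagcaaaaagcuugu
miR-208b-3p: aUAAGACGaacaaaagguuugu
miR-499-5p: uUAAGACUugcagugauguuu
miR-208a-3p and miR-208b-3p share 1 seed, and miR-499-5p has another. The microRNAs themselves were not measured here; the levels below are those of the host mRNAs.

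All 8 heavy chains were higher in differentiated than in growing cells, from levels at or near 0 in growth, with Myh3 far above the rest. Each of the 8 was higher in the differentiated than in the growth library in 10 of 10 lines, where 15.4% of the 19103 genes above 0 in any library were. For 5 of the 8 (Myh2, Myh3, Myh6, Myh7 and Myh8) every differentiated library lay above every growth library, against 5.87% of those genes. The states overlapped across lines for Myh1, Myh4 and Myh7b.

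**Figure D2:**
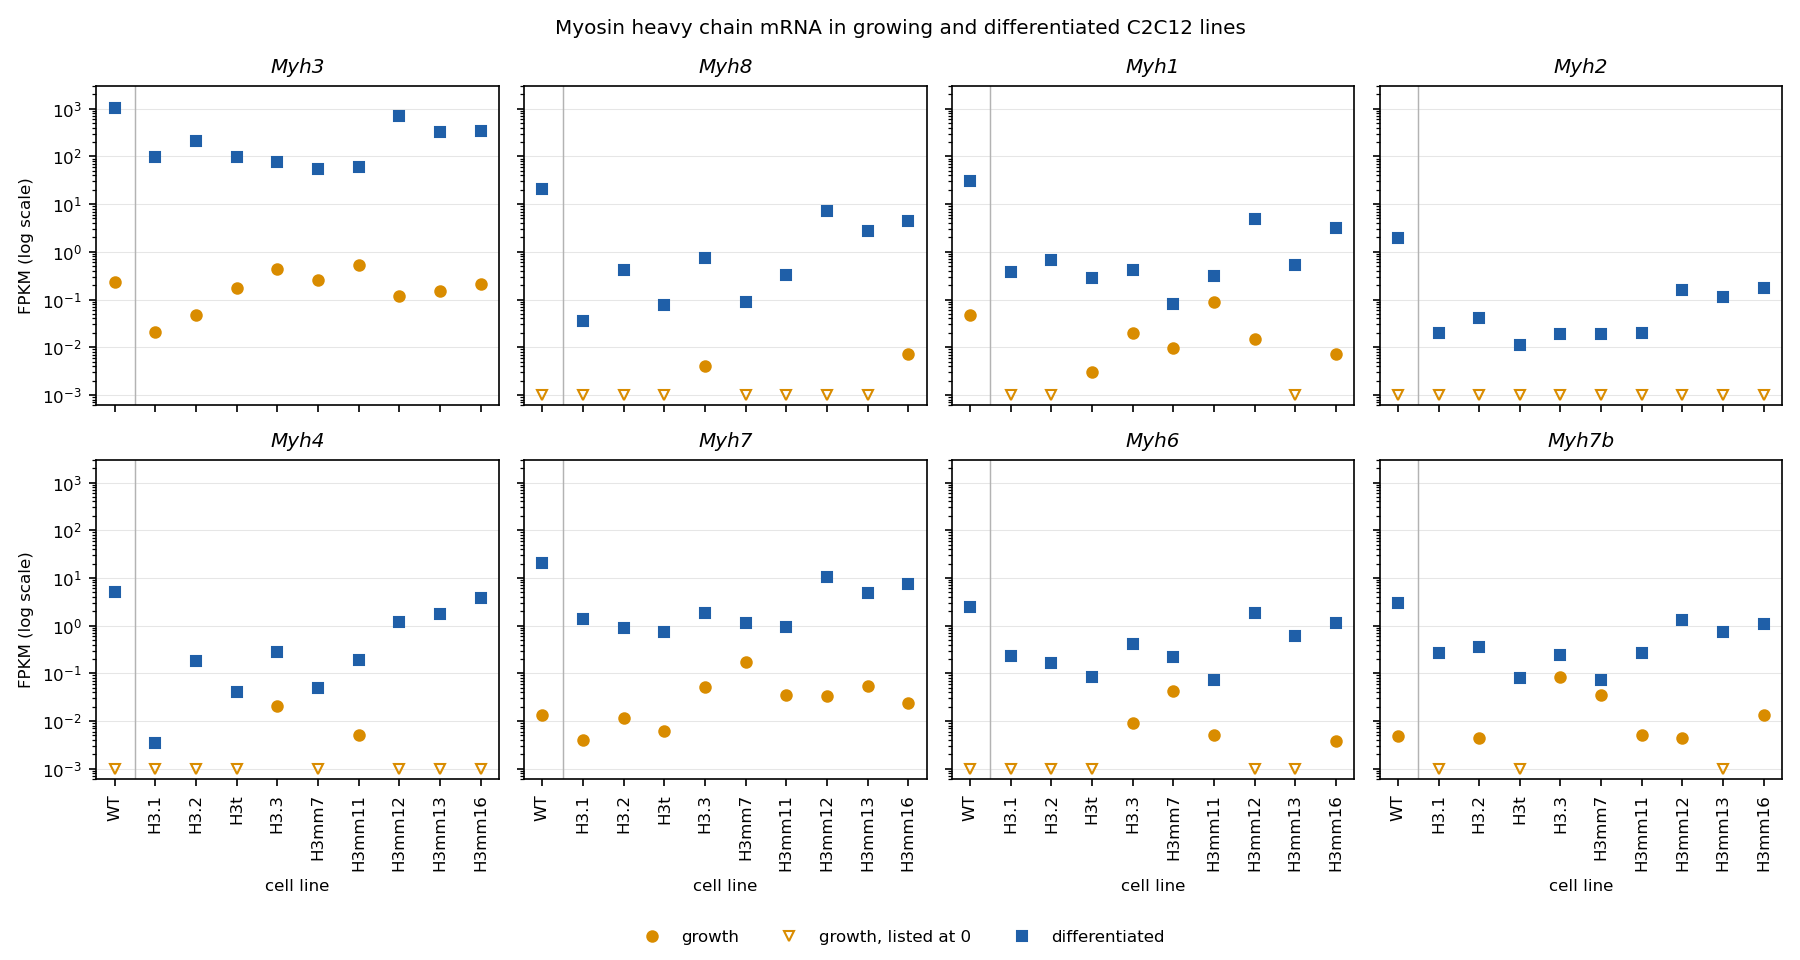
FPKM of each heavy chain gene (log scale) in the growth and the differentiated library of each of 10 cell lines, WT left of the grey line; open triangles at the bottom mark growth libraries in which the gene is listed at 0. Myh3 lies between 54.9 and 1060 FPKM in differentiated cells, and WT is the highest differentiated library for every gene.

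Myh3, the embryonic chain, was at 0.0211 FPKM (H3.1) to 0.536 FPKM (H3mm11) in growth, with a median of 0.192. In differentiated cells it was at 95.6 FPKM in H3.1, 207 in H3.2, 98.4 in H3t, 78.0 in H3.3, 54.9 in H3mm7, 60.7 in H3mm11, 712 in H3mm12, 325 in H3mm13, 343 in H3mm16 and 1060 in WT. The lowest differentiated library was thus 103 times the highest growth library, and the differentiated libraries themselves spread 19.3-fold. The difference was 7.26 on the log2(FPKM + 1) scale (SE 0.45, limma, adjusted p = 1.72e-11 over 10954 genes), and 8.87% of these genes passed both thresholds (adjusted p below 0.05 and at least 1 on the log2 scale) in the higher direction.

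Myh8, the perinatal chain, was listed at 0 in 8 of 10 growth libraries and reached 0.00704 FPKM in the highest (H3mm16). Differentiated libraries had it at 0.0360 FPKM in H3.1, 0.416 in H3.2, 0.0749 in H3t, 0.737 in H3.3, 0.0884 in H3mm7, 0.319 in H3mm11, 7.02 in H3mm12, 2.76 in H3mm13, 4.46 in H3mm16 and 20.4 in WT. The gene thus spanned 566-fold over differentiated libraries, with the states not overlapping. Its difference was 1.37 on the log2(FPKM + 1) scale (SE 0.44, limma, adjusted p = 0.0115).

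Of the adult fast chains, Myh1 (the IIx chain) was at 0 to 0.0887 FPKM in growth, highest in H3mm11. After 48 h it was at 0.384 FPKM in H3.1, 0.685 in H3.2, 0.276 in H3t, 0.424 in H3.3, 0.0802 in H3mm7, 0.304 in H3mm11, 4.90 in H3mm12, 0.531 in H3mm13, 3.0996 in H3mm16 and 30.4 in WT. The differentiated H3mm7 library lay just below the growth library of H3mm11, so the states overlapped. The difference was 1.25 on the log2(FPKM + 1) scale (SE 0.45, limma, adjusted p = 0.0218), and it missed the threshold without line H3mm12 (adjusted p = 0.0567) or H3mm16 (adjusted p = 0.0531).

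Myh2 (the IIa chain) was listed at 0 in all 10 growth libraries and was the lowest member in 9 of 10 differentiated libraries, the other being H3.1, where Myh4 was lower. It was at 0.0109 FPKM in H3t, 0.0185 in H3mm7 and H3.3, 0.0201 in H3.1, 0.0203 in H3mm11 and 0.0411 in H3.2, then at 0.161 in H3mm12, 0.113 in H3mm13, 0.174 in H3mm16 and 1.96 in WT. The first 6 values correspond to 2.66 to 9.87 estimated fragments each. Myh4 (the IIb chain) was listed at 0 in 8 of 10 growth libraries, with 0.0206 FPKM in H3.3 as the highest. In differentiated cells it was at 0.00337 FPKM in H3.1, 0.183 in H3.2, 0.0406 in H3t, 0.281 in H3.3, 0.0483 in H3mm7, 0.193 in H3mm11, 1.20 in H3mm12, 1.76 in H3mm13, 3.84 in H3mm16 and 5.03 in WT. The H3.1 value was under 1 estimated fragment and lay below the growth value of H3.3, so the states overlapped.

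Myh7, the slow chain of skeletal muscle, was the second most abundant member in every differentiated library except WT, where Myh1 was above it. It was at 0.00398 to 0.169 FPKM in growth, highest in H3mm7. Differentiated libraries had it at 1.35 FPKM in H3.1, 0.899 in H3.2, 0.720 in H3t, 1.87 in H3.3, 1.15 in H3mm7, 0.953 in H3mm11, 10.5 in H3mm12, 4.85 in H3mm13, 7.33 in H3mm16 and 20.4 in WT. The states did not overlap, and the difference was 1.95 on the log2(FPKM + 1) scale (SE 0.38, limma, adjusted p = 0.000168).

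Myh6, the alpha cardiac chain that lies beside Myh7, was listed at 0 in 6 of 10 growth libraries and reached 0.0418 FPKM (H3mm7). After 48 h it was at 0.226 FPKM in H3.1, 0.161 in H3.2, 0.0844 in H3t, 0.421 in H3.3, 0.224 in H3mm7, 0.0730 in H3mm11, 1.88 in H3mm12, 0.613 in H3mm13, 1.14 in H3mm16 and 2.48 in WT. Myh7 was 4.45 times as high as Myh6 in H3.3 and more in each other differentiated library. Of 8 cardiac markers, 4 were tested between the states: Tnni3 rose by 2.10 on the log2(FPKM + 1) scale (SE 0.41, limma, adjusted p = 0.000154), from 0.0942 to 2.30 FPKM in growth to 1.46 to 33.4 in differentiated cells, Nppb fell by 1.25 (SE 0.28, adjusted p = 0.000644), and Nkx2-5 at -0.87 and Gata4 at 0.00480 did not pass. Nkx2-5 was at 2.01 to 32.6 FPKM and Gata4 at 7.04 to 15.1 over the 20 libraries, while Tbx5 was at most 0.0410 FPKM and listed at 0 in 7 libraries. The summed cardiac list was at 21.3 to 52.0 FPKM in growth and 17.6 to 54.1 in differentiated cells; its part in the Myh6 and Myh7 values was not tested.

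Myh7b was listed at 0 in 3 of 10 growth libraries, with 0.0815 FPKM in H3.3 as the highest. In differentiated cells it was at 0.264 FPKM in H3.1, 0.354 in H3.2, 0.0798 in H3t, 0.237 in H3.3, 0.0732 in H3mm7, 0.267 in H3mm11, 1.34 in H3mm12, 0.732 in H3mm13, 1.05 in H3mm16 and 2.92 in WT. H3mm7 and H3t lay below the growth value of H3.3, so the states overlapped across lines although each line was higher in its differentiated library.

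Only Myh1, Myh3, Myh7 and Myh8 had a mean of at least 1 FPKM and entered the test, all through their differentiated values, so that the 4 of 4 passing it counts for nothing beyond the values above. Myh1 and Myh8 entered through WT alone: over the 18 libraries of the GFP-H3 lines their means were 0.602 and 0.884 FPKM. With every gene tested, without a filter, Myh4 differed by 0.84 (SE 0.29, adjusted p = 0.0260), Myh6 by 0.66 (SE 0.18, adjusted p = 0.00683) and Myh7b by 0.65 (SE 0.18, adjusted p = 0.00661), under the size of 1 on the log2(FPKM + 1) scale that 5.24% of 19103 genes passed in this direction, and Myh2 by 0.24 (SE 0.14, adjusted p = 0.214), all by limma. That scale compresses low values. On log2(FPKM + 0.1), again without a filter and chosen after the values were seen, 7 of the 8 passed both thresholds (8.75% of 19103 genes did in that direction) and Myh2 was at 0.996 (SE 0.38, adjusted p = 0.0433), just under the size asked for. Without WT the same 7 passed on this scale (8.8% of 19077 genes).

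**Figure D3:**
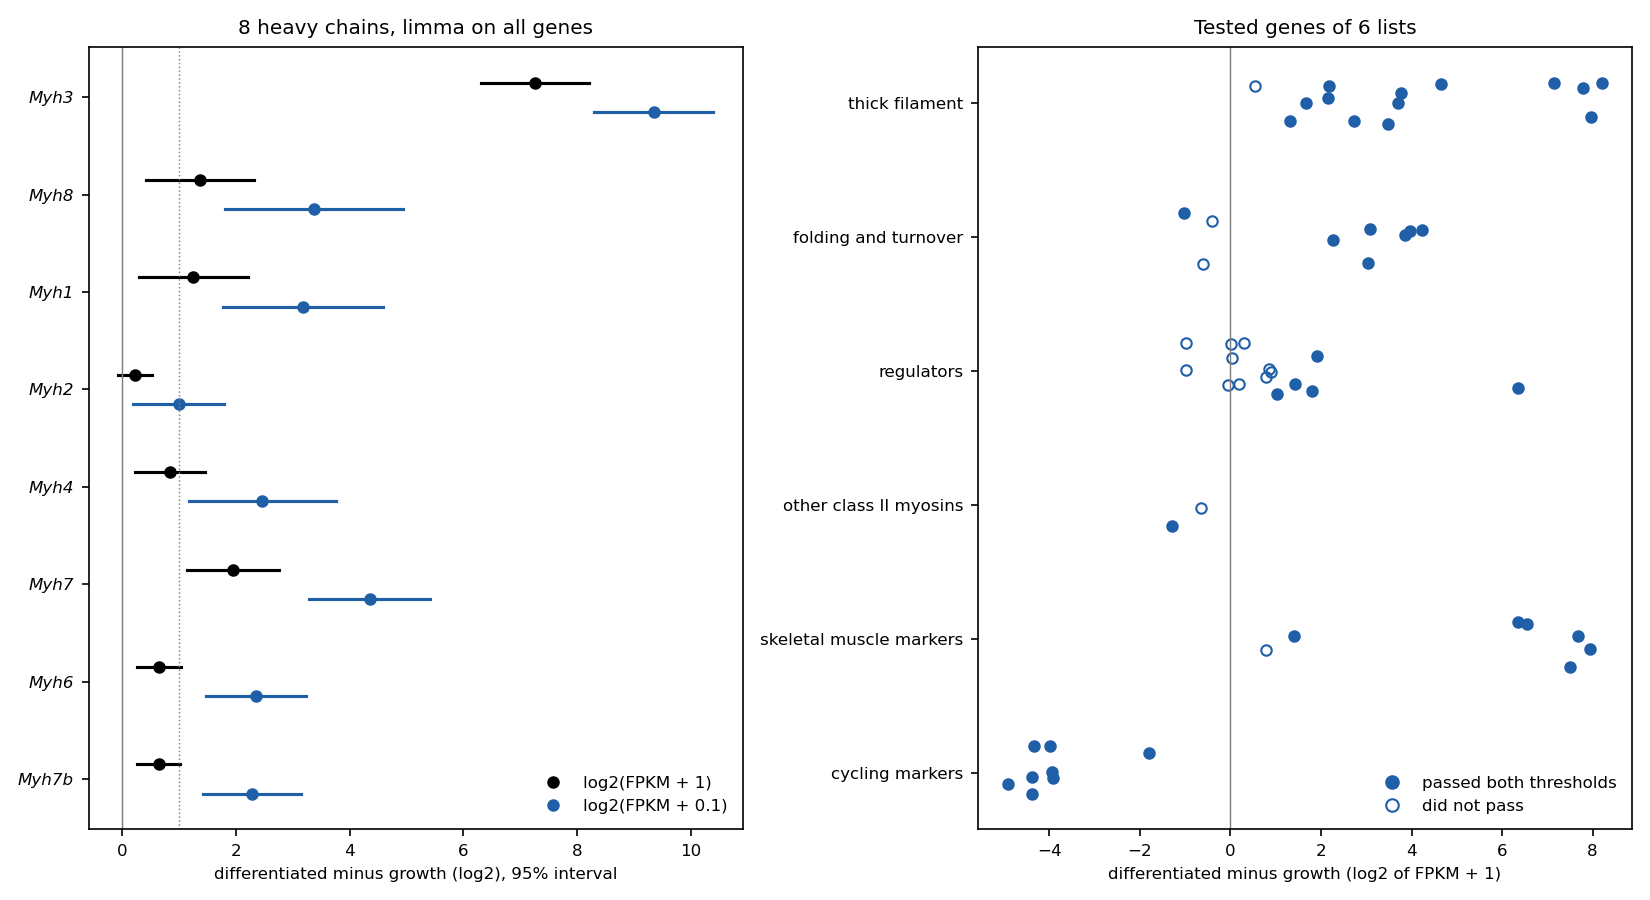
Left, difference between differentiated and growth libraries for each heavy chain gene with its 95% interval (limma over all genes without a filter), on log2(FPKM + 1) and log2(FPKM + 0.1); the dotted line marks the size of 1. Right, the same difference on log2(FPKM + 1) for each tested gene of 6 lists, filled where both thresholds were passed. Myh3 is drawn on the left only, and its 7.26 is a value like those of the highest thick filament genes on the right.

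The order of the levels was clear at the top and not below. In differentiated cells Myh3 was above Myh7 in 10 of 10 libraries, by 41.7 to 230 times, and Myh7 above Myh8 in 10 of 10, though by a factor of only 1.003 in WT. Myh8 was above Myh1 in 6 of 10 libraries, Myh1 above Myh6 in 8, Myh6 above Myh7b in 5, Myh7b above Myh4 in 6 and Myh4 above Myh2 in 9. Neighbours from Myh8 down to Myh4 thus changed order between libraries, and the differences between them were not tested. Myh3 made up 92.7% (WT) to 98.7% (H3t) of the summed FPKM of the 8 genes in differentiated cells.

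The members differed in how their proportion to Myh3 of the same library varied. Myh7b ranged 5.41-fold over the 10 differentiated libraries and Myh7 5.53-fold, from 4.34 (H3.2) to 24.0 FPKM (H3.3) of Myh7 per 1000 FPKM of Myh3. Myh6 ranged 6.93-fold. Myh2 ranged 16.6-fold and Myh1 19.6-fold, but without WT these were 4.58-fold and 6.19-fold, so their place among the members rested on 1 library. Myh8 ranged 51.1-fold, from 0.376 per 1000 in H3.1 to 19.2 in WT (34.5-fold without WT), and Myh4 319-fold, from 0.0352 in H3.1 to 11.2 in H3mm16, the first of these values resting on less than 1 estimated fragment.

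**Figure D4:**
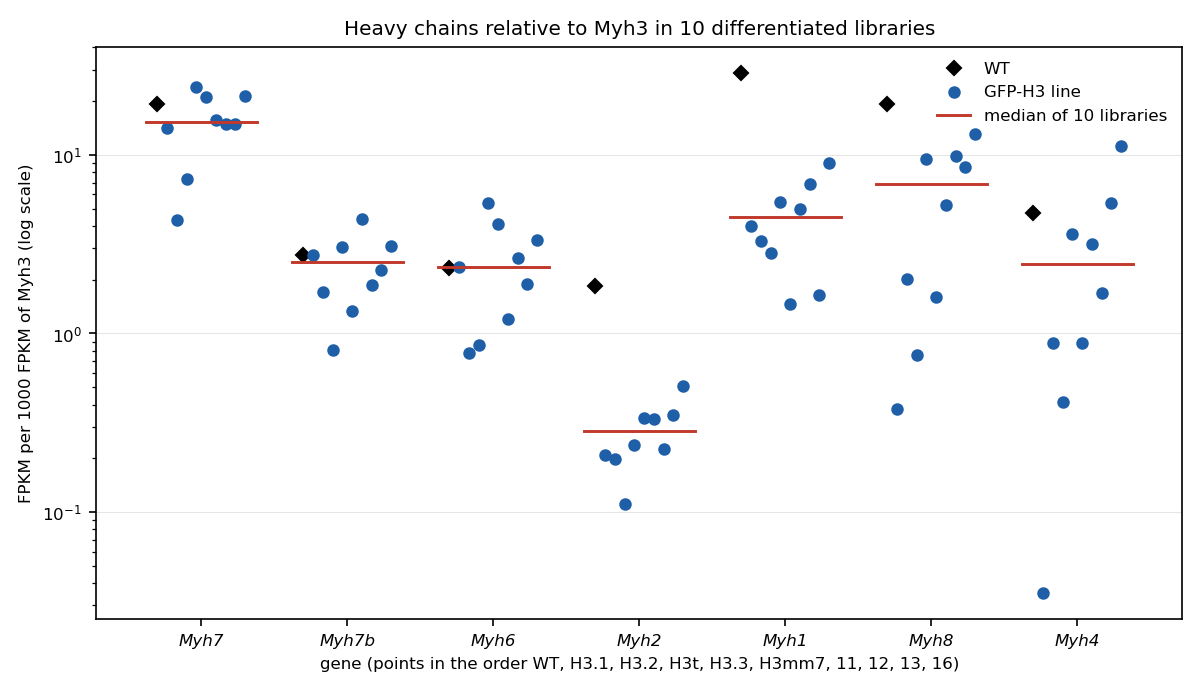
FPKM of each of 7 heavy chain genes per 1000 FPKM of Myh3 in the same differentiated library (log scale), with 1 point per library and the median as a line. Myh7 and Myh7b stay within 5.53-fold, Myh8 and Myh4 spread over 51.1-fold and 319-fold, and WT is the highest point for Myh1, Myh2 and Myh8.

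The balance of 2 fast chains, Myh1 and Myh4, also varied between the libraries, with 1 library per line. Myh1 exceeded Myh4 in 8 of 10 differentiated libraries, 6.05 times in WT, 4.07 times in H3mm12, 3.74 times in H3.2 and 6.79 times in H3t. It was only 1.51, 1.57 and 1.66 times as high in H3.3, H3mm11 and H3mm7, with 19.0 and 11.3 estimated fragments in H3mm7. The ratio of 114 in H3.1 rested on less than 1 estimated fragment of Myh4. In H3mm13 and H3mm16 Myh4 was the higher, with Myh1 at 0.302 and 0.806 times its level. The 2 genes are 13235 bases apart and share 90.2% of their coding bases.

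WT ranked first of the 10 differentiated libraries for all 8 genes, where 16.3% of the genes above 0 were highest in WT. Over the 8 members H3mm12 ranked from 2 to 4, H3mm16 from 2 to 3 and H3mm13 from 3 to 5. H3.1 ranked from 6 (Myh6 and Myh7) to 10 (Myh4 and Myh8), and H3t from 6 (Myh3) to 10 (Myh2 and Myh7). H3mm7 ranked from 7 (Myh6 and Myh7) to 10 (Myh1, Myh3 and Myh7b), and H3mm11 from 6 (Myh2, Myh4 and Myh7b) to 10 (Myh6). H3.2 ranked from 4 (Myh1) to 9 (Myh7), and H3.3 from 5 to 8. The summed skeletal muscle markers were highest in H3mm12 (13917 FPKM), H3mm16 (11109) and H3mm13 (10521), followed by WT (8408) and H3.2 (6564), with 2979 to 3928 in the other 5 lines. Their part in the heavy chain levels was not tested. WT was thus first for every heavy chain while it was the fourth library for the summed FPKM of these markers. In that sum Acta1 weighed most, with a mean of 3318 FPKM over the differentiated libraries, next to 910 FPKM for Tnni2.

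The lead of WT over the highest GFP-H3 line was uneven among the members. It was 11.2-fold for Myh2, 6.21-fold for Myh1 and 2.90-fold for Myh8. For the others it was 2.19-fold (Myh7b), 1.94-fold (Myh7), 1.49-fold (Myh3), 1.32-fold (Myh6) and 1.31-fold (Myh4). With 1 WT library per state there is no test, and the state of WT, its separate history and any separate mapping of its reads cannot be told apart. In growth WT lay inside the range of the 9 lines for Myh1, Myh3, Myh7 and Myh7b and was listed at 0 for Myh2, Myh4, Myh6 and Myh8.

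Of the heavy chains, the 4 that passed the filter could be ranked by their spread over the differentiated libraries, Myh1 and Myh8 being among them through WT alone. The SD on the log2(FPKM + 1) scale was 1.52 for Myh1, 1.50 for Myh8 and Myh3 and 1.29 for Myh7, against a median of 0.34 over 10954 genes, and 97.6% to 98.5% of genes had a smaller one. Over the 9 GFP-H3 lines the SD was 0.84 for Myh1, 1.12 for Myh8, 1.29 for Myh3 and 1.03 for Myh7. The other members had an SD of 0.97 (Myh4), 0.61 (Myh6), 0.60 (Myh7b) and 0.47 (Myh2) over the 10 libraries.

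By the type of tagged histone, no member passed the test in differentiated cells, where 0.768% of 10931 genes did. The H3.3-type lines held both the lowest and the highest GFP-H3 library for Myh3 (54.9 to 712 FPKM), around the 3 H3.1/H3.2-type lines at 95.6, 207 and 98.4 FPKM. Below these lay H3mm7 (54.9 FPKM), H3mm11 (60.7) and H3.3 (78.0), and above them H3mm13 (325), H3mm16 (343) and H3mm12 (712). The test by type averages over this split, which was not tested itself. The difference between the types for Myh3 was 0.41 on the log2(FPKM + 1) scale (95% interval -0.89 to 1.70, limma, adjusted p = 0.760). Myh7 was at 0.720 to 1.35 FPKM in the H3.1/H3.2-type lines and at 0.953 to 10.5 in the H3.3-type lines, and overlapped. Its difference was 1.14 (95% interval 0.25 to 2.03, limma, unadjusted p = 0.0146, adjusted p = 0.137). The fit took 1 estimate of spread per gene from growth and differentiated libraries together. The SD of Myh7 was 1.07 (H3.3-type) and 0.23 (H3.1/H3.2-type) in differentiated lines, but 0.07 and 0.006 in growth. That of Myh3 was 1.56 and 0.63, but 0.18 and 0.11 in growth. These intervals are thus likely narrower, and the p-values smaller, than the differentiated lines alone would give.

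The other 6 members had a mean under 1 FPKM over the 18 libraries. Tested without a filter and with the same shared spread, none passed, where 0.204% of 19077 genes did, with adjusted p from 0.211 (Myh8) to 0.608 (Myh1) by limma. Myh8 was at 0.0360 to 0.416 FPKM in the H3.1/H3.2-type lines and 0.0884 to 7.02 in the H3.3-type lines, and Myh4 at 0.00337 to 0.183 and 0.0483 to 3.84 FPKM. Both overlapped, as did each of the 8, while 2.36% of genes above 0 were apart with the H3.3-type lines higher.

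**Figure D5:**
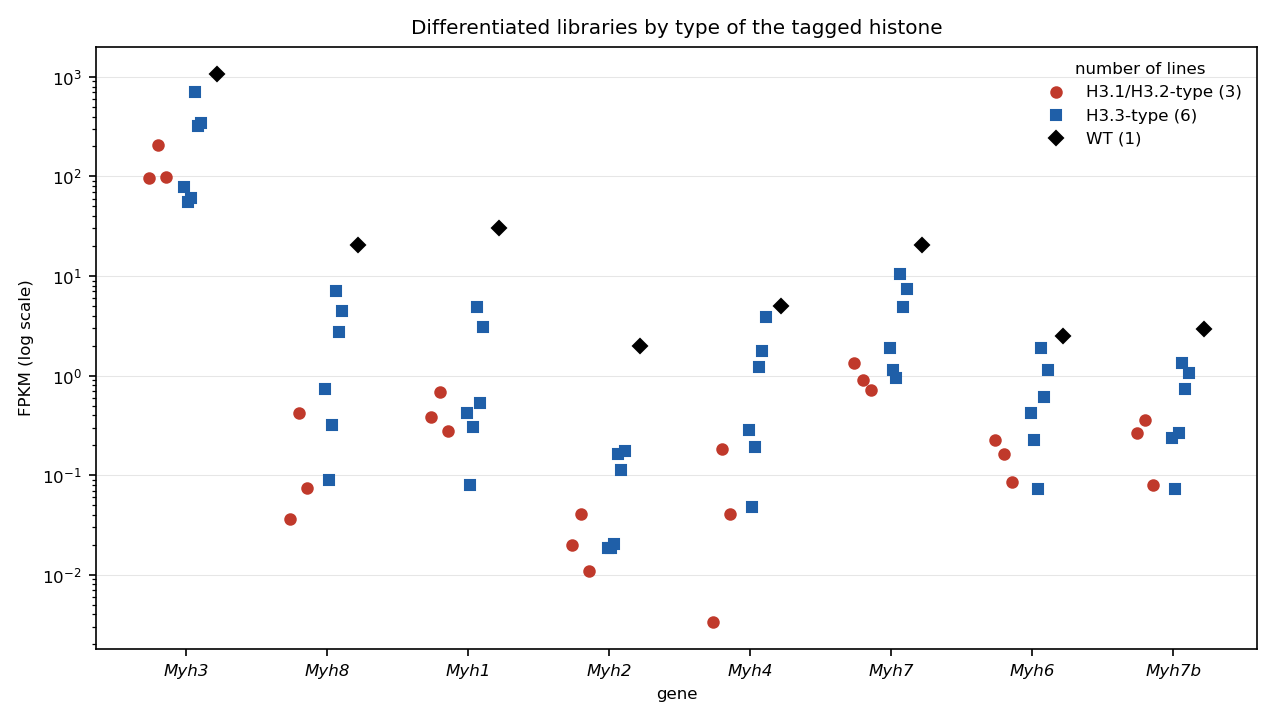
FPKM of each heavy chain gene (log scale) in the differentiated libraries, 1 point per line, by the type of the tagged histone, with WT apart. The 3 H3.1/H3.2-type lines overlap the 6 H3.3-type lines for every gene, and WT lies above both.

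In growth neither tested member passed the test between the types, where 0.21% of genes did: Myh3 was at 0.24 (95% interval -1.06 to 1.53, limma, adjusted p = 0.947) and Myh7 at 0.07 (95% interval -0.81 to 0.96, limma, adjusted p = 0.983). All 6 H3.3-type lines had Myh7 at 0.0243 FPKM or more in growth and the 3 others at 0.0118 or less, as a single member of the 8, where 4.75% of genes above 0 were also apart in this direction. Differences at this depth hardly register on log2(FPKM + 1). The shared spread also came mostly from the differentiated libraries, with an SE of 0.62 for Myh3 and 0.42 for Myh7. In growth the SD was only 0.18 (H3.3-type) and 0.11 (H3.1/H3.2-type) for Myh3, and 0.07 and 0.006 for Myh7. The growth test could thus hardly have been passed at these levels, and nothing is concluded from it. The change with differentiation did not differ detectably between the types for Myh3 (0.17, 95% interval -1.66 to 2.00, limma, adjusted p = 0.978) or Myh7 (1.07, 95% interval -0.19 to 2.32, limma, adjusted p = 0.626). No gene of 10931 passed that test by limma (0%), 999 had an unadjusted p under 0.05, and other settings called 0 to 4.

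Other parts of the thick filament rose with Myh3. Of 17 genes of the list, 14 were tested and 13 rose, with a median difference of 3.59 on the log2(FPKM + 1) scale against 0.04 over all genes tested. The regulatory light chain Mylpf rose by 8.21 (SE 0.41, adjusted p = 9.81e-13), the embryonic and atrial essential light chain Myl4 by 7.95 (SE 0.33, adjusted p = 2.08e-13), the myosin-binding protein Mybph by 7.80 (SE 0.29, adjusted p = 1.33e-13) and the fast essential light chain Myl1 by 7.16 (SE 0.55, adjusted p = 4.88e-10), all by limma. The smallest differences were those of 2 myosin light chain kinases, Mylk4 at 1.31 (SE 0.29), which passed, and Mylk2 at 0.54 (SE 0.21, adjusted p = 0.0292), which did not. In differentiated cells Mylpf was at 3627 ± 1788 FPKM and Myl1 at 1268 ± 952 FPKM, beside 303 ± 335 FPKM for Myh3 (mean ± SD, n = 10 lines).

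Of 9 genes for the folding and turnover of myosin, all tested, 6 rose and 1 fell. Unc45b, the muscle chaperone that folds the myosin head, rose by 4.22 (SE 0.36), its partner Smyd1 by 3.96 (SE 0.30), and the muscle ubiquitin ligases Trim63 and Fbxo32 by 3.86 (SE 0.25) and 3.08 (SE 0.28). Unc45a, the general form of the chaperone, was at -0.40 (SE 0.11) and the small heat shock protein Hspb1 at -0.60 (SE 0.55), neither passing. Hsp90aa1 was the gene that fell, by 1.02 (SE 0.35, limma, adjusted p = 0.0164).

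Of 19 transcription factors and cofactors that act on heavy chain genes, 15 were tested. Both thresholds were passed by 5 in the higher direction and by none in the lower, against 8.87% and 8.41% of 10954 genes. Under the size of 1, but with a low adjusted p by limma, Nfatc1 was at -0.97 (adjusted p = 1.28e-07) and Vgll2 at -0.98 (adjusted p = 0.00834). On the other side, Mef2d was at 0.90 (adjusted p = 2.19e-05) and Eya4 at 0.85 (adjusted p = 3.46e-06). The 5 that passed were Myog, the factor of terminal differentiation, which rose by 6.34 (SE 0.45), Mef2a by 1.92 (SE 0.16), Tead4 by 1.80 (SE 0.21), Mef2c by 1.42 (SE 0.41) and Tbx15 by 1.03 (SE 0.24). Six4 at 0.01 (SE 0.17) and Eya1 at 0.03 (SE 0.13) had the smallest differences. Sox6 and Prox1, known for fiber type, averaged 0.0199 and 0.0194 FPKM in differentiated cells and were not tested.

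The other class II myosins of the table are given here. The nonmuscle chain Myh10 fell by 1.29 on the log2(FPKM + 1) scale (SE 0.15, limma, adjusted p = 3.28e-07), lower in 10 of 10 lines, and Myh9 was at -0.65 (SE 0.18, adjusted p = 0.00321), under the size asked for. The smooth muscle chain Myh11 was at most 0.379 FPKM in any library, Myh14 at most 0.0643, Myh13 at most 0.0611 and Myh15 at most 0.00602. Myh13 is the extraocular chain that follows Myh8 on chromosome 11.

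Likeness over the 10 differentiated libraries was compared with 10951 genes that passed the filter, which leaves out Myh2, Myh4, Myh6 and Myh7b. There the genes whose log2(FPKM + 1) was most like that of Myh3 were Srl (Pearson r = 0.99), a protein of the sarcoplasmic reticulum whose order over the libraries was that of Myh3, Itgb1bp2 (r = 0.99) and Tpm2 (r = 0.99), a tropomyosin. Those of Myh1 were Murc (r = 0.97), a muscle protein of caveolae, Mylk4 (r = 0.96) and Zfp568 (r = 0.95). Myh7 and Myh8 were each other's nearest among these genes (r = 0.99), followed by Hoxc4 (r = 0.97) and Dusp27 (r = 0.97) for Myh7, and Dusp27 (r = 0.98) and Filip1 (r = 0.97) for Myh8. Of the members under the filter, Myh6 was at r = 0.99 with Myh7, and Myh7b at r = 0.98 with Myh8 and r = 0.96 with Myh1. Myh2 was at r = 0.92 with Myh1 but 0.71 with Myh3, and Myh4 at r = 0.93 with Myh8 but 0.75 with Myh2. Of the 31-base words of Myh6, 32.5% occur in Myh7 too, and the part of divided fragments in their r was not tested. The 10 points share the high values of WT, H3mm12, H3mm13 and H3mm16: without the 2 libraries farthest from the median, r fell to 0.73, 0.54 and 0.75 for the 3 genes of Myh1 and stayed at 0.98 to 0.99 for those of Myh3.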

How the data were processed

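mRNA-Seq of 20 libraries was used. The table has no column named H3t; its columns named H3mmT were taken as that line, since every other line has a column of its own name. For the GFP-H3 lines the authors used TopHat2 2.0.8 and mm9 as the genome, and made the deposited FPKM values with Cuffdiff of Cufflinks 2.0.1 (names and versions also in the submitters' processing notes); the mapping of WT reads is not given in the sources used here. The values are estimates, not counts, and Cuffdiff divides fragments that match several genes, so an exact 0 was written as listed at 0. Depth was estimated from the spacing of low FPKM values of 4696 genes with 1 transcript and annotated lengths, and is approximate.

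Genes with a mean of at least 1 FPKM over the libraries fitted were tested on log2(FPKM + 1), which understates changes of low genes, with limma 3.58.1 (trend and robust settings, R 4.3.3) and Benjamini-Hochberg adjustment over all genes tested; a gene passed with a log2 difference of 1 or more and an adjusted p under 0.05. State was tested over 20 libraries, and the histone type over 18 as 4 groups that shared 1 estimate of the spread per gene. WT has 1 library per state and got no test. On simulated data, 93% of changes of 1.5 and 100% of 2.5 (log2) were recovered for state over 10954 genes, and 85% and 97% for type in differentiated cells. The simulation gave each gene the same SD in both states and planted changes in genes drawn at random. Its shares do not hold for the 4 heavy chains above the filter, whose SD in differentiated cells was 1.29 to 1.52 against a median of 0.34. Growth and differentiated libraries of a line are paired, since both come from the same line; their deviations from the state means correlated at 0.273 to 0.877, and each of 10 lines correlated best with itself.

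All 8 heavy chain genes are named, with the 3 most correlated genes of each member that passed the filter, up to 4 passing genes with the largest and 2 tested genes with the smallest difference per list, and all other class II myosins. Tbx15, Hsp90aa1, Sox6, Prox1, Nfatc1, Vgll2, Mef2d and Eya4 were chosen after their values were seen. The members and lists were chosen with earlier results of these data known. Sequence was compared with Biopython 1.88 on mm9 and GENCODE M1, and promoters and microRNAs were RefSeq's; the P-loop codons of the other 2 members are not reported here. 3′-seq tables, which hold histone genes, and the other samples of the series were not used here.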

Additional observations from a re-analysis of the deposited data

Results flagged for a closer look

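Among the 9 GFP-H3 lines, 1 library stood far from the other 8 for 5 members in growth, on the log2(FPKM + 1) scale. Its gap to the nearest line was a larger part of the whole range than Dixon's 95% limit for 9 values allows. In all, 15 sets of 9 lines were examined. The rate of about 1 in 20 marked by chance holds for normal values. It does not hold for sets crowded at 0, where Myh4 was listed at 0 in 7 and Myh6 in 5 of these growth libraries. The number marked can thus not be set against that rate. For Myh1 it was H3mm11 at 0.0887 FPKM, next to 0.0200 FPKM in H3.3 (gap 0.767 of the range). For Myh6 and Myh7 it was H3mm7, at 0.0418 FPKM next to 0.00891 (gap 0.783) and at 0.169 FPKM next to 0.0537 (gap 0.682). For Myh4 and Myh7b it was H3.3, at 0.0206 FPKM next to 0.00503 (gap 0.753) and at 0.0815 FPKM next to 0.0349 (gap 0.562). All 5 are low values in growing cells, and no differentiated library was marked. The neighbours Myh6 and Myh7 were marked in the same line, and so were Myh4 and Myh7b, which lie on different chromosomes.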

How the results depend on the processing

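Between the states, Myh3 and Myh7 passed under every alternative that tested them. Members passing went from 4 to 1 under the stricter filter of 5 FPKM, to 2 without WT, and to 7 with a pseudocount of 0.1 FPKM and no filter, with or without WT; without WT and with no filter Myh1 was at 0.84 and did not pass. Over lines left out the number was 2 to 4, with 2 only without WT. In all, 1893 genes passed, 1848 to 1978 with a line left out, 2997 with a pseudocount of 0.1 FPKM and no filter, and 3036 so without WT. Settings with WT and filter or pseudocount and filter changed together were chosen after seeing the data.

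Between the types no member passed under any alternative run. In differentiated cells 84 genes passed, 134 with a pseudocount of 0.1 FPKM, 39 without a filter, 47 under the stricter filter, and 3 (without H3.1) to 293 (without H3.2) with a line left out. In growth 23 passed, 51 and 72 with pseudocounts of 0.1 and 0.01 FPKM, 14 without a filter, 14 under the stricter filter, 36 with a pseudocount of 0.1 FPKM and no filter, and 2 (without H3.1) to 25 with a line left out. For the interaction 0 passed, 2 without a filter, 1 under the stricter filter, 4 with quantile normalization, 2 with a pseudocount of 0.1 FPKM and no filter, and 0 to 2 with a line left out.

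The replicate block, which pairs the 2 libraries of a line, gave 3 genes for the interaction and changed no call of a member in either contrast.

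Signs turned for differences that did not pass. Myh3 between types in differentiated cells was at -0.011 without H3mm12, with a range of -0.011 to 0.77 over lines left out. Its interaction was at -0.65 with a pseudocount of 0.1 FPKM, with or without a filter, -1.47 with one of 0.01 FPKM, -0.29 without H3mm12, -0.06 without H3t, -0.05 without H3mm13 and -0.05 without H3mm16, up to 0.55 without H3.2. That of Myh7 was at -0.17 with a pseudocount of 0.01 FPKM. The cause was not tested. Scaling to the same median moved members' median levels and the WT levels by less than the spread over lines. The low members rest on few fragments, each line has 1 library, and WT has no replicate.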
